A study of Mus musculus with 54 samples.

Results

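The genes described here are 9 of the 16632 genes in the count table, chosen by symbol for their place in eicosanoid and phospholipid metabolism. They are the cyclooxygenases Ptgs1 and Ptgs2, the prostaglandin synthases Ptges and Hpgds, the leukotriene genes Alox5ap and Ltc4s, and the phospholipases Pla2g4a, Pla2g7 and Pla1a. All 9 were listed and all 9 passed the filter on low counts. Pla1a was chosen because it was higher in cells exposed to alpha-synuclein (aSyn) than in untreated cells, so values of that contrast are given for every gene as a description, with no test.

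The cells were primary microglia of C57BL/6 mice, taken from neonatal brains and shaken off the astrocyte layer on which they had grown. Donor cultures took up fluorescent (Atto-488) aSyn at 1 µM during 14 h, and acceptor cultures received no aSyn and were stained with a violet cell dye (CellTracer Violet). Donors and acceptors were mixed, co-cultured and sorted apart again by flow cytometry. The question addressed was how the transcriptomes of loaded and unloaded cells change while they are in contact. The 14 groups were untreated cells, cells exposed to aSyn alone, and donors and acceptors labelled 0, 15, 30, 60, 150 and 300 min. All groups shared the strain and the culture method. The labels do not say whether the untreated cells and the cells with aSyn alone passed the sorter. Co-culture and sorting therefore cannot be told apart in comparisons with these 2 groups. The acceptors alone carried the violet dye, so in comparisons of acceptors with untreated cells the dye cannot be told apart from these either. Between donors and acceptors, the aSyn load and the violet dye changed together and cannot be told apart. Each T75 flask held cells pooled from 2 brains.

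The replicate number of a library names its experiment, of which there were 4, and most groups have 1 library per experiment. Experiment 4 gave no library at 0 min in either population, experiment 2 gave no donor library at 60 min and experiment 3 gave no acceptor library at 300 min. The 54 libraries held between 7807389 and 15537493 counts each. The 6 untreated libraries gave 4 values, because same-numbered pairs were summed, which leaves 52 values per gene. Experiment 4 stood apart: the ribosomal RNA precursor Rn45s held 18.2% of its counts on average and 6.60% in the other experiments, although its lowest library (13.4%) was below the highest of the others (13.5%). The 10 microglial markers were all detected, although Siglech reached at most 7 counts in any library and Tmem119 and P2ry12 averaged below 10 CPM (counts scaled to a common library total) in every population. Their summed level was 3281 to 4639 CPM in untreated cells and 2835 to 5049 CPM in acceptors. In donors it was 3333 to 5159 CPM in experiments 1 to 3 but 968 to 1173 CPM in experiment 4, where cells with aSyn alone had 1189 CPM. Astrocyte markers summed to 8.02 to 49.6 CPM in sorted cells and reached 156 CPM in untreated cells, and the 1 listed mast cell marker of 6 never exceeded 1.19 CPM. Oligodendrocyte-lineage markers summed to 64.1 to 251.2 CPM in sorted cells and reached 551 CPM in untreated cells. Some markers of other cell types were called higher in donors than acceptors by edgeR over libraries: S100a8 (log2 fold change 2.16, adjusted p = 0.0218) of 3 monocyte or neutrophil markers tested, Pecam1 (2.31, 2.54e-07) and Kdr (0.85, 0.00129) of 4 endothelial markers, and Pf4 (0.84, 2.50e-05) and Ms4a7 (0.31, 0.0323) of 5 markers of border-associated macrophages. Their part in the donor-acceptor results below was not tested.

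Arachidonic acid is cut from membrane phospholipids by cytosolic phospholipase A2, the product of Pla2g4a. The cyclooxygenases turn it into prostaglandin H2, which Ptges converts to prostaglandin E2 and Hpgds to prostaglandin D2. Along the other branch, the protein encoded by Alox5ap presents arachidonic acid to 5-lipoxygenase, and Ltc4s adds glutathione to the product to give leukotriene C4. Pla2g7 encodes an enzyme that inactivates platelet-activating factor and cleaves oxidised phospholipids, and Pla1a encodes a secreted phospholipase specific for phosphatidylserine. In microglia, Ptgs2 and Ptges are known as inflammation-induced genes, whereas Ptgs1 and Hpgds are known from resting cells.

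Donors carried more Pla2g7 and Pla1a RNA than acceptors of the same co-culture in every experiment and at every time. Ptgs2 and Ptges were also higher in donors on average, but by amounts that differed widely between experiments. The ratio of the donor to the acceptor mean was 0.97 in experiment 1 and 7.60 in experiment 4 for Ptgs2. For Ptges it was 1.82 and 17.9. Alox5ap was lower in donors on average, with the opposite direction in experiment 3. Pla1a was chosen for being higher with aSyn, which donors had received, and it passed the filter on low counts through the cells with aSyn: 1 of 22 acceptor libraries and none of the untreated values reached 10 counts. Its donor-acceptor values are therefore a description, and the counts of calls below are over the other 8 genes. In edgeR's quasi-likelihood test over all 6 times, 3 of the 8 genes were called higher in donors (Pla2g7, Ptgs2 and Ptges) and 1 lower (Alox5ap), at an adjusted p under 0.05. The same test called 25.6% of all 13169 genes tested, 12.7% higher and 12.9% lower, so the share of calls in the list has to be read against a high background. The median log2 fold change of the 8 genes was 0.41 and that of all genes was -0.02. The 22 donor and 22 acceptor libraries come from only 4 experiments and are not independent, so the p-values of this test are too small as p-values over experiments. When counts were summed per experiment and compared in 4 pairs, an alternative added after the data were seen, edgeR called 1.2% of genes and, of the 8, Pla2g7. Summed without the pairing, it called 2 genes in all and none of the 8. Without experiment 4, the test over libraries called 20.9% of genes and, of the 8, Pla2g7, Ptgs2, Ptges and also Ltc4s. The summed test without experiment 4 called 5.18% of genes and, of the 8, again Pla2g7.

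**Figure D1:**
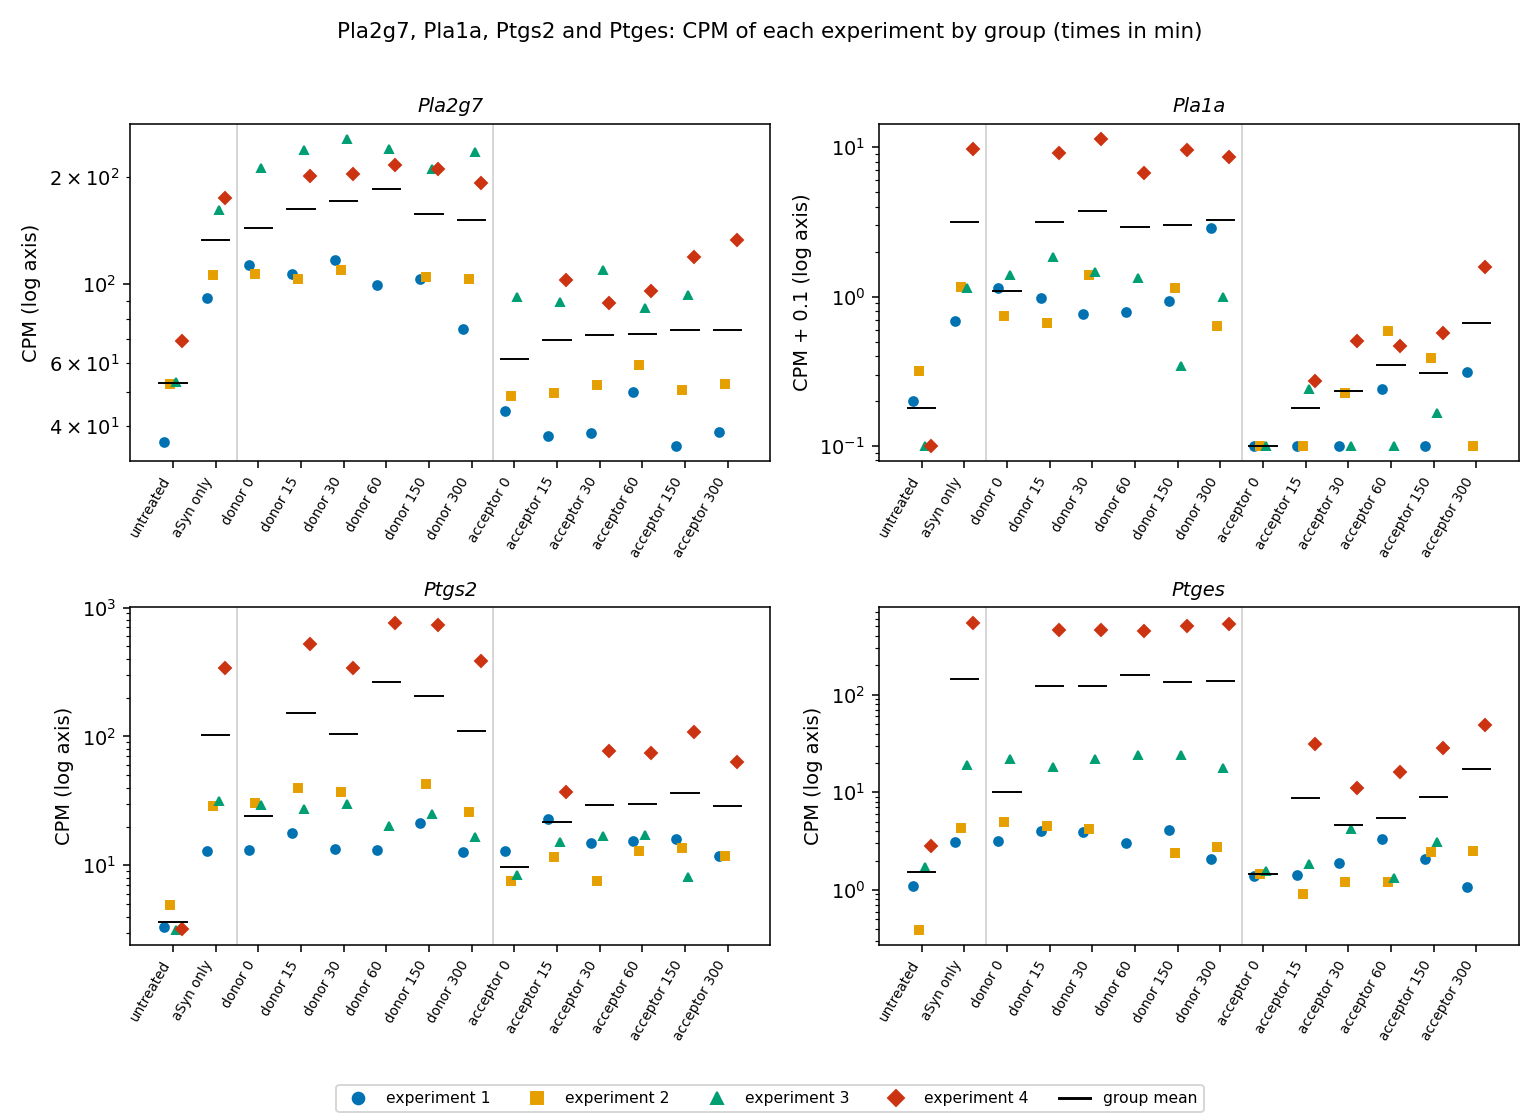
CPM (log axis; 0.1 was added to Pla1a because some libraries were at 0) of Pla2g7, Pla1a, Ptgs2 and Ptges in the 14 groups; each point is 1 experiment and black bars are group means. Pla2g7 and Pla1a points of donors lie above those of acceptors of the same experiment, and experiment 4 lies far above the others for Ptgs2 and Ptges in cells that had received aSyn.

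Pla2g7 was the most regular of the genes. The gene lies on chromosome 17 (GRCm38, 43568098 to 43612201, plus strand). Untreated cells had 36.1, 52.4, 53.1 and 69.2 CPM in experiments 1 to 4, and cells with aSyn alone had 91.3, 106, 161 and 174 CPM. In every experiment the aSyn value was the higher one, by a ratio of 2.53, 2.03, 3.04 and 2.52.
In donors of experiment 1, the levels at 0, 15, 30, 60, 150 and 300 min were 113, 107, 117, 99.3, 104 and 75.1 CPM. Acceptors of that experiment had 44.0, 37.6, 38.3, 50.0, 35.2 and 38.4 CPM at these times. The lowest donor library was thus above the highest acceptor library, and the untreated value lay within the range of the acceptors.
In experiment 2, donors had 107, 104, 109, 105 and 103 CPM at 0, 15, 30, 150 and 300 min, and acceptors had 48.7, 49.5, 52.0, 59.5, 50.4 and 52.5 CPM over the 6 times. In experiment 3, donors had 212.2, 238.6, 255.8, 239.1, 211.2 and 235.4 CPM, and acceptors had 92.1, 88.9, 110, 85.5 and 93.3 CPM from 0 to 150 min. In experiment 4, donors had 201, 204, 216, 211 and 192 CPM from 15 to 300 min, and acceptors had 103, 88.8, 95.8, 119 and 133 CPM. The 2 populations did not overlap in any experiment, and donors were higher in 21 of 21 pairs of the same time and experiment. Only 1.07% of all genes tested had every donor library above every acceptor library in all 4 experiments. The share of all genes without overlap in fewer than 4 experiments is not given here. Non-overlap in single experiments, for this and the other genes, is therefore a description only.
The ratio of the donor to the acceptor mean was 2.53, 2.03, 2.47 and 1.90 in experiments 1 to 4. Over all libraries the log2 fold change was 1.19 ± 0.19 (SE; adjusted p = 6.75e-06 by edgeR). In the 4 summed pairs it was 1.15 ± 0.10 (edgeR adjusted p = 0.0129). Leaving out experiment 4, the summed pairs gave 1.23 (adjusted p = 0.00288).
Acceptors of experiments 3 and 4 were above their untreated cells, by a ratio of 1.77 and 1.56, whereas those of experiments 1 and 2 overlapped with the untreated value. Group means followed in the order untreated (52.7 ± 13.5 CPM, SD), the 6 acceptor groups, aSyn alone and the 6 donor groups, of which 60 min was the highest (185 ± 74.9 CPM, n = 3). Neighbouring groups in that order differed by less than their SD, except that aSyn alone (133 ± 40.6 CPM, n = 4) lay further above the highest acceptor group (300 min, 74.7 ± 51.1 CPM, n = 3). Means of groups that lack an experiment cannot be set beside the others. The 60 min donor mean lacks experiment 2, where donors were at 103 to 109 CPM. Within experiments 1 and 3 the highest donor value was at 30 min (117 and 255.8 CPM), and in experiment 4 at 60 min (216 CPM).

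Pla1a was scarce. The gene lies on chromosome 16 (GRCm38, 38396117 to 38433145, minus strand). Its counts are the smallest of the 9 genes, and values of 3 counts or fewer, which correspond to 0.110 to 0.384 CPM, are at the limit of counting. Untreated cells had 1, 5, 0 and 0 counts in experiments 1 to 4, and cells with aSyn alone had 8, 15, 13 and 110 counts. This difference led to the choice of the gene, in a contrast that called 2.5% of all genes, and nothing is read from it here.
Donors had received aSyn as well, so the values that follow are not independent of the choice and are given with no test. Donors of experiment 1 had 12, 10, 8, 9, 10 and 38 counts over the 6 times, or 0.668 to 2.80 CPM. Experiment 2 gave 10, 8, 14, 17 and 7 counts at 0, 15, 30, 150 and 300 min, and experiment 3 gave 18, 22, 19, 14, 3 and 10 counts. In experiment 4, donors had 114, 131, 84, 130 and 108 counts from 15 to 300 min, or 6.58 to 11.3 CPM.
Acceptors had at most 3 counts in 16 of 22 libraries and 0 counts in 10 of them. The highest acceptor values were 6 counts in experiment 2 (60 min), 2 counts in experiments 1 and 3, and 20 counts in experiment 4 (300 min, 1.47 CPM). Within each experiment every donor library was above every acceptor library in CPM, and donors were higher in 21 of 21 pairs.
Summed over all libraries, donors had 796 counts (2.79 CPM) and acceptors 56 counts (0.207 CPM), a ratio of 13.5. The ratio was 11.4 in experiments 1 to 3, where acceptors had 19 counts in all, and 14.6 in experiment 4, where they had 37. Group means ran from 0 counts in all 3 acceptor libraries at 0 min to 3.65 ± 5.09 CPM (SD, n = 4) in donors at 30 min, and this SD reflects the distance of experiment 4 from the others.

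Pla2g4a, on chromosome 1 (GRCm38, 149829618 to 149961290, minus strand), varied less. Donors had 18.2 to 31.4 CPM in experiment 1 against 27.6 to 35.0 CPM in acceptors, so they were the lower ones in 5 of 6 pairs. In the other experiments the order was turned: donors had 24.4 to 36.5, 30.3 to 38.1 and 43.2 to 84.8 CPM in experiments 2, 3 and 4, and acceptors 16.9 to 27.4, 18.7 to 29.5 and 25.4 to 47.9 CPM. Donors were higher in 4 of 5, 5 of 5 and 5 of 5 pairs of these experiments. The log2 fold change of 0.35 ± 0.14 (SE) just missed the threshold over libraries (edgeR adjusted p = 0.05003). With the experiment as a block it was 0.28 and passed (edgeR adjusted p = 0.0178), in a fit that called 44.3% of all genes. In the summed pairs it was 0.38 and did not pass (edgeR adjusted p = 0.313). Cells with aSyn alone had 27.2, 29.3, 38.2 and 53.2 CPM and untreated cells 21.0, 20.9, 27.7 and 29.9 CPM, the aSyn value being higher in each experiment by a ratio of 1.30 to 1.78.

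Ptgs2, which encodes the inducible cyclooxygenase, had the widest range of values together with Ptges. The gene lies on chromosome 1 (GRCm38, 150100031 to 150108227, plus strand), and Ptges on chromosome 2 (30889471 to 30929863, minus strand). The 250 bases before the RefSeq start of each gene are shown (GRCm38.p6) because the 2 genes take part in consecutive steps and shared the high values of experiment 4. The Ptgs2 stretch is chr1:150099781-150100030 on the plus strand and the Ptges stretch is chr2:30903298-30903547 on the minus strand. Capitals mark every match to TTNCNNAA, a C/EBP-like pattern, on either strand.
Ptgs2: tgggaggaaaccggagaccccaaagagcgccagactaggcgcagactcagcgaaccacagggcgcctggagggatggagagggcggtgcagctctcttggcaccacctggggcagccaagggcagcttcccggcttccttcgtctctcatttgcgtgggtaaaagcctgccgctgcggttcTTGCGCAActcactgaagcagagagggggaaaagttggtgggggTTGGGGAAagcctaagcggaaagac
Ptges: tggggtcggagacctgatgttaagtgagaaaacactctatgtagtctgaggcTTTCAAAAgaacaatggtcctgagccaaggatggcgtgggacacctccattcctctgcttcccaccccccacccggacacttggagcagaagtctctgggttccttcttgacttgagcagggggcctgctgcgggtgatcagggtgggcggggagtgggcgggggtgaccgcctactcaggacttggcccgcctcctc
In Ptgs2 the matches lie at positions -69 to -62, on both strands since the letters are a palindrome, and at -25 to -18 on the opposite strand, counted from the annotated start. In Ptges the match lies at -198 to -191. This pattern occurs in 36.8% of the 32851 RefSeq promoter windows of that length, so a match is common. The NF-kB consensus (present in 7.25% of windows), TGACGTCA (1.55%), CGTCA (17.8%), TGANTCA (6.75%), CACGTG (6.02%) and TATAAA (12.4%) were searched on both strands as well, and their letters were not found in either window. TGACGTCA contains CGTCA, so these 2 searches overlap. Bases after the annotated start, and those further than 250 bases before it, were not searched. The absence of a match therefore holds for these windows alone and does not show that either promoter lacks such sites. Promoter windows were at hand for 7 of the 9 genes, without Alox5ap and Pla1a.

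Untreated cells had 3.33, 4.93, 3.17 and 3.20 CPM of Ptgs2 in experiments 1 to 4, and cells with aSyn alone had 12.9, 29.1, 31.4 and 339 CPM. Every aSyn value was above every untreated value.
Donors of experiment 1 had 13.05, 17.7, 13.3, 13.1, 21.4 and 12.7 CPM over the 6 times, and acceptors 12.9, 22.7, 15.0, 15.4, 16.0 and 11.8 CPM. Here the 2 populations overlapped throughout, with donors higher in 3 of 6 pairs. In experiment 2, donors had 30.6, 39.9, 37.3, 42.5 and 25.7 CPM at 0, 15, 30, 150 and 300 min, and acceptors 7.57, 11.6, 7.54, 12.8, 13.6 and 11.9 CPM over the 6 times. In experiment 3, donors had 29.3, 27.5, 30.1, 20.3, 24.8 and 16.5 CPM, and acceptors 8.39, 15.2, 17.0, 17.2 and 8.17 CPM from 0 to 150 min. In experiment 4, donors had 519, 337, 762, 731 and 384 CPM from 15 to 300 min, and acceptors 37.3, 76.9, 74.1, 108 and 63.6 CPM. Donors were higher in 5 of 5 pairs in each of experiments 2, 3 and 4, and the populations did not overlap in experiments 2 and 4.
The ratio of the donor to the acceptor mean was thus 0.97, 3.25, 1.88 and 7.60 in experiments 1 to 4. Over libraries the log2 fold change was 2.26 ± 0.56 (SE; adjusted p = 0.00246 by edgeR). It was 0.87 without experiment 4 (adjusted p = 4.61e-04). In the summed pairs it was 1.44 ± 0.47 and missed the threshold (edgeR adjusted p = 0.156), also without experiment 4 (0.93, adjusted p = 0.144).
The high values of experiment 4 came with the low sum of microglial markers in its donors and with the high Rn45s share given above. The 3 listed monocyte or neutrophil markers of 7 summed to 9.69 CPM in its cells with aSyn alone, to a median of 8.54 CPM in its donors and to 1.66 CPM in its acceptors, against medians of 3.88, 1.49 and 1.34 CPM in donors of experiments 1 to 3. These shifts move with the level of Ptgs2 and Ptges in experiment 4, and their part in this result was not tested.

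In cells with aSyn alone, Ptges followed the same order of experiments as Ptgs2 and rose more steeply. In donors the order differed between experiments 2 and 3. Their means were 35.2 and 24.8 CPM for Ptgs2, and 3.75 and 21.4 CPM for Ptges. Untreated cells had 1.11, 0.393, 1.71 and 2.83 CPM of Ptges, and cells with aSyn alone had 3.09, 4.34, 18.8 and 546 CPM. Donors had 2.06 to 4.10 CPM in experiment 1, 2.40 to 4.91 CPM in experiment 2, 17.9 to 24.3 CPM in experiment 3 and 453 to 525 CPM in experiment 4. Acceptors had 1.07 to 3.33, 0.903 to 2.48, 1.34 to 4.19 and 11.01 to 48.4 CPM in experiments 1 to 4. The populations overlapped in experiments 1 and 2 and did not in experiments 3 and 4, and donors were higher in 5 of 6, 4 of 5, 5 of 5 and 5 of 5 pairs.
The ratio of the means was 1.82, 2.32, 8.89 and 17.9. Its log2 fold change was 3.84 ± 0.84 (SE; adjusted p = 6.79e-04 by edgeR) over libraries, 2.39 without experiment 4 (adjusted p = 1.06e-04) and 2.41 ± 0.64 in the summed pairs, where it missed the threshold (edgeR adjusted p = 0.117).
The experiment accounted for 63.4% of the variance of log2 CPM of Ptges over the 52 values and the group for 29.4%. For Ptgs2 these shares were 52.6% and 35.0%, and for Pla2g7 they were 42.2% and 56.9%. These shares overlap and do not add up, since not every group was present in every experiment. A processed pseudogene, Gm13400, lies within Ptges on the same strand but does not cover its annotated 3′ end, near which these libraries are read.

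Ptgs1, the constitutive cyclooxygenase, on chromosome 2 (GRCm38, 36230426 to 36252272, plus strand), had 11 to 111 counts in each of the 52 values, with group means between 2.64 ± 1.56 (acceptors, 300 min, n = 3) and 4.14 ± 0.89 CPM (acceptors, 150 min; SD, n = 4). Donors had 4.64 to 7.27 CPM in experiment 1 and 0.949 to 2.24 CPM in experiment 4. Donors were higher in 6 of 6 pairs of experiment 1 and lower in 5 of 5 pairs of experiment 2. In experiments 3 and 4 they were higher in 3 of 5 and 2 of 5 pairs. The average log2 fold change between donors and acceptors was 0.02 ± 0.24 (SE; adjusted p = 0.963 by edgeR), and its sign changed among the other fits.

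Hpgds, the hematopoietic prostaglandin D synthase, on chromosome 6 (GRCm38, 65117293 to 65144908, minus strand), had its highest group mean in untreated cells, with 281, 286, 218 and 224 CPM in experiments 1 to 4, although 1 donor library of experiment 1 (284 CPM, 300 min) and 1 acceptor library of experiment 2 (307 CPM, 15 min) were above the untreated value of their experiment. Cells with aSyn alone had 211, 202, 125 and 121 CPM, lower in each experiment by a ratio of 0.75, 0.71, 0.57 and 0.54. Donors had 182 to 284, 183 to 244.6, 102 to 144 and 96.0 to 132 CPM in experiments 1 to 4, and acceptors 191 to 238.3, 234.7 to 307, 122 to 180 and 121 to 191 CPM. The populations overlapped in all 4 experiments, yet within pairs of the same time donors were lower in 5 of 5 pairs in each of experiments 2, 3 and 4, and in 2 of 6 pairs of experiment 1. The log2 fold change was -0.26 ± 0.14 (SE; adjusted p = 0.15 by edgeR) over libraries and -0.27 ± 0.12 in the summed pairs (edgeR adjusted p = 0.229). With the experiment as a block it passed at -0.24 ± 0.07 (adjusted p = 0.0027), in a fit that called 44.3% of all genes.

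**Figure D2:**
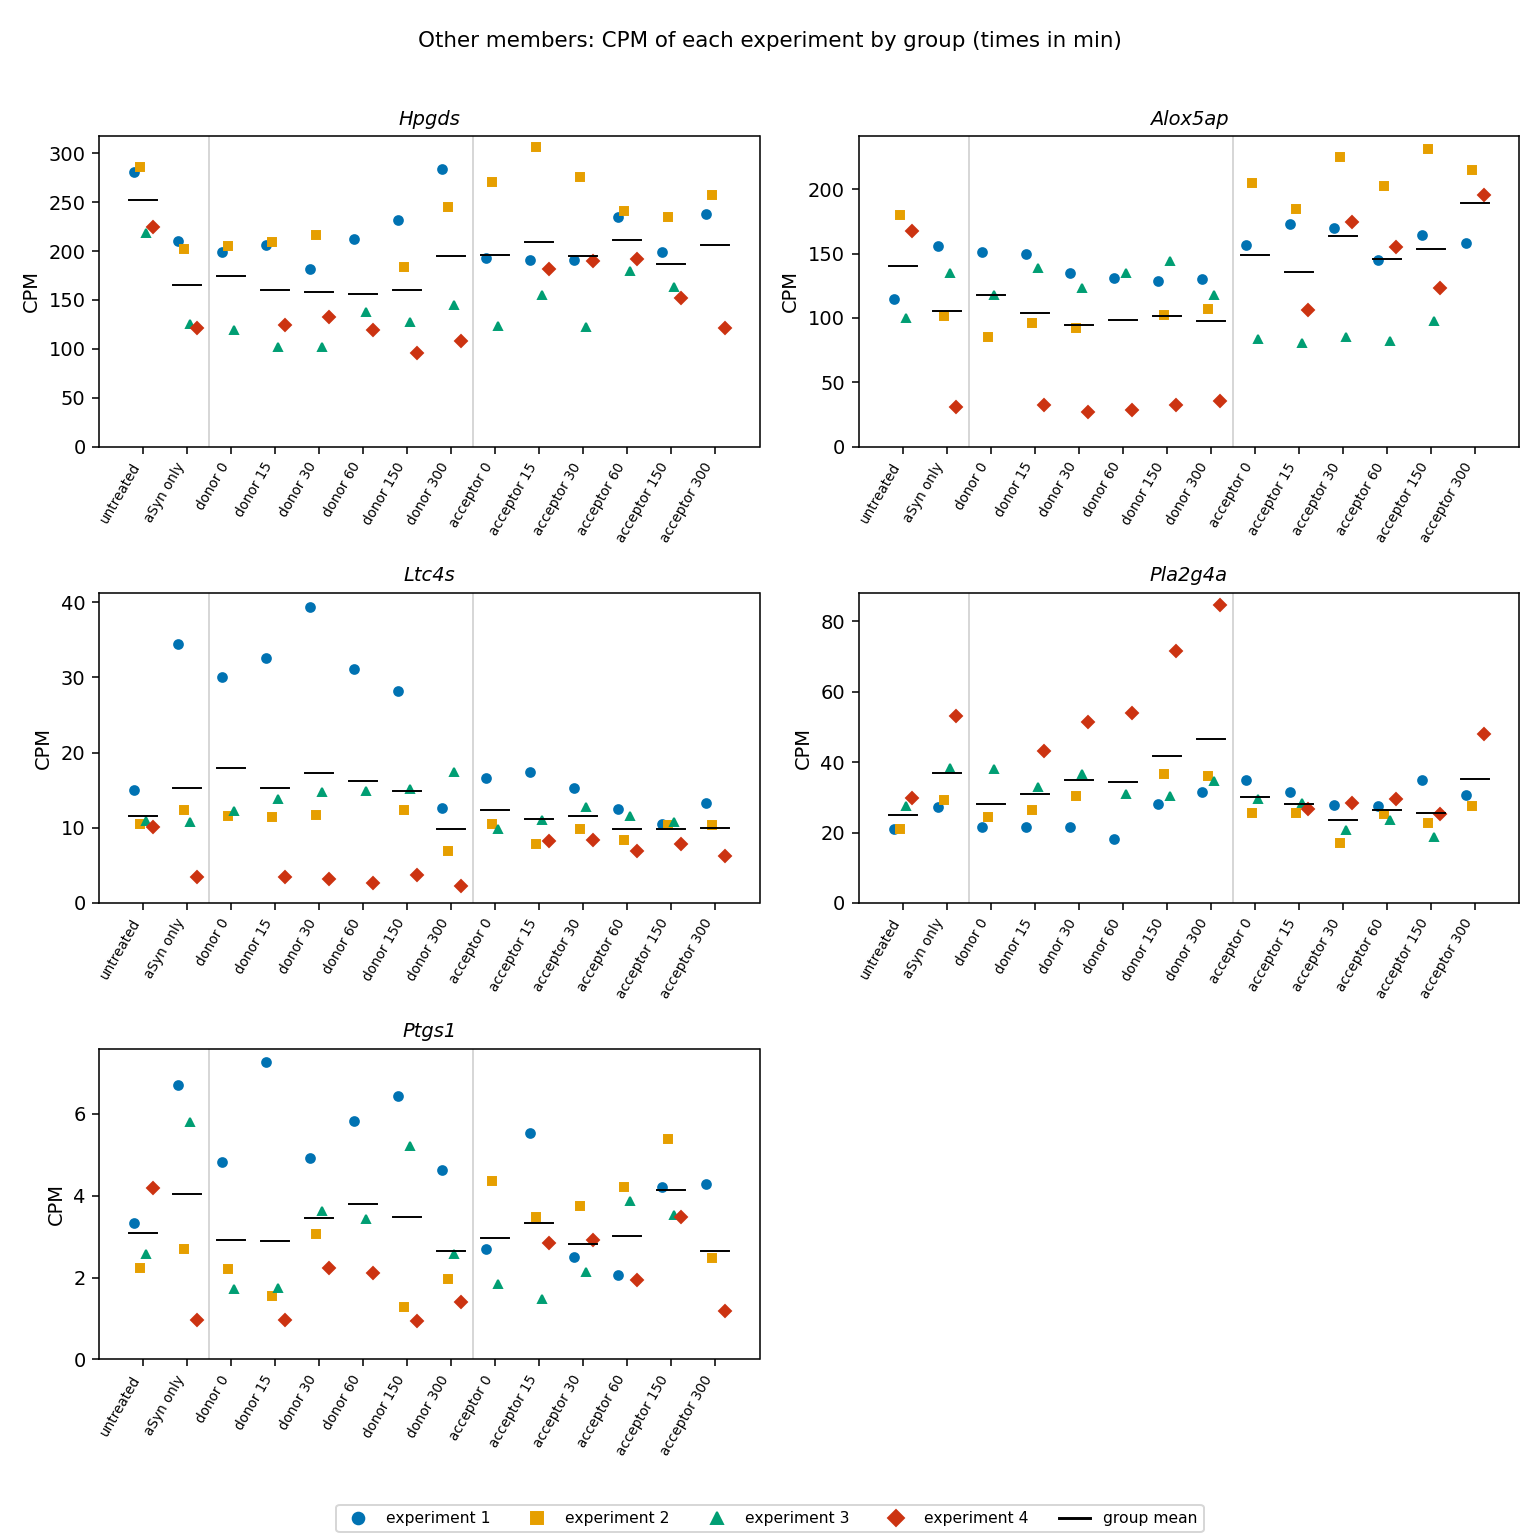
CPM of Hpgds, Alox5ap, Ltc4s, Pla2g4a and Ptgs1 in the 14 groups (linear axes from 0); each point is 1 experiment and black bars are group means. Alox5ap of experiment 4 lies between 27.2 and 35.6 CPM in donors and between 106 and 195 CPM in acceptors, and Ltc4s of experiment 1 is high in donors up to 150 min.

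Alox5ap encodes the 5-lipoxygenase-activating protein and lies on chromosome 5 (GRCm38, 149264767 to 149288153, plus strand). Donors had 128 to 151 CPM in experiment 1, 85.3 to 107 CPM in experiment 2, 118 to 144 CPM in experiment 3 and 27.2 to 35.6 CPM in experiment 4. Acceptors had 145 to 173, 185 to 231.1, 80.2 to 97.3 and 106 to 195 CPM in the same order. Donors were below acceptors without overlap in experiments 2 and 4, below in 6 of 6 pairs with overlapping ranges in experiment 1, and above without overlap in experiment 3.
The ratio of the means was 0.85, 0.46, 1.51 and 0.21. The log2 fold change of -0.61 ± 0.21 (SE) was called over libraries (edgeR adjusted p = 0.0315). It lost the call without experiment 1 (-0.78, adjusted p = 0.0547), without experiment 2 (-0.36, adjusted p = 0.399) and without experiment 4 (-0.35, adjusted p = 0.110). In the summed pairs it was -0.75 ± 0.46 (adjusted p = 0.367).
Cells with aSyn alone had 156, 102, 135 and 30.4 CPM and untreated cells 115, 180, 99.8 and 168 CPM. The aSyn value was higher in experiments 1 and 3 and lower in experiments 2 and 4.

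Ltc4s, the leukotriene C4 synthase, lies on chromosome 11 (GRCm38, 50236461 to 50238616, minus strand). The antisense gene Gm26542 overlaps it on the other strand but, like Gm13400 in Ptges, does not cover its annotated 3′ end. The same holds for opposite-strand genes within Alox5ap, Pla2g7, Hpgds, Pla2g4a and Ptgs1. The use of strand in counting is not given, so reads that fall in a shared stretch cannot be told apart. Donors had 12.7 to 39.4 CPM in experiment 1, where 5 of 6 pairs were higher than acceptors (10.6 to 17.5 CPM). In experiment 3, donors had 12.2 to 17.4 CPM and acceptors 9.89 to 12.8 CPM, with donors higher in 5 of 5 pairs. Experiment 2 differed little, with 6.92 to 12.4 CPM in donors and 7.87 to 10.6 CPM in acceptors.
In experiment 4 the order was turned without overlap, with 2.19 to 3.72 CPM in donors and 6.18 to 8.34 CPM in acceptors. The log2 fold change was 0.48 ± 0.27 (SE; adjusted p = 0.203 by edgeR) over libraries, 0.67 without experiment 4 (adjusted p = 0.0197) and 0.09 ± 0.35 in the summed pairs (adjusted p = 0.903). Leaving out experiment 4 therefore moved the value past the threshold in the test over libraries, but not in the summed pairs (0.50, adjusted p = 0.158).

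**Figure D3:**
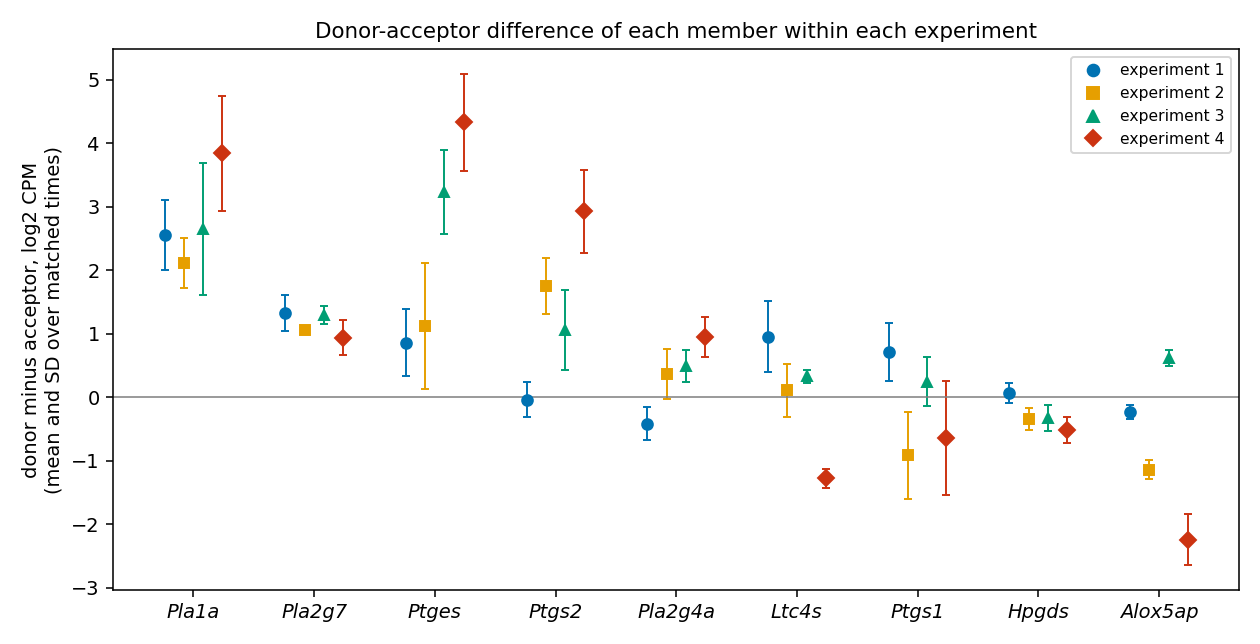
Difference in log2 CPM between donors and acceptors of the same time, for each gene within each experiment (points are means over 5 or 6 matched times, bars are SD, the grey line marks no difference). Pla1a and Pla2g7 lie above 0 in all 4 experiments, whereas Alox5ap and Ltc4s lie on different sides of 0 in different experiments.

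The experiments fell into no single order for the 9 genes. On the scale of the mean difference in log2 CPM between pairs, Pla2g7 lay between 0.94 and 1.33 in the 4 experiments and Pla1a between 2.12 and 3.84. Ptges lay between 0.86 and 4.33, and Ptgs2 between -0.04 and 2.93. Alox5ap spanned -2.24 to 0.62, Ltc4s -1.27 to 0.96, Ptgs1 -0.91 to 0.71, Pla2g4a -0.41 to 0.95 and Hpgds -0.52 to 0.07.

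**Figure D4:**
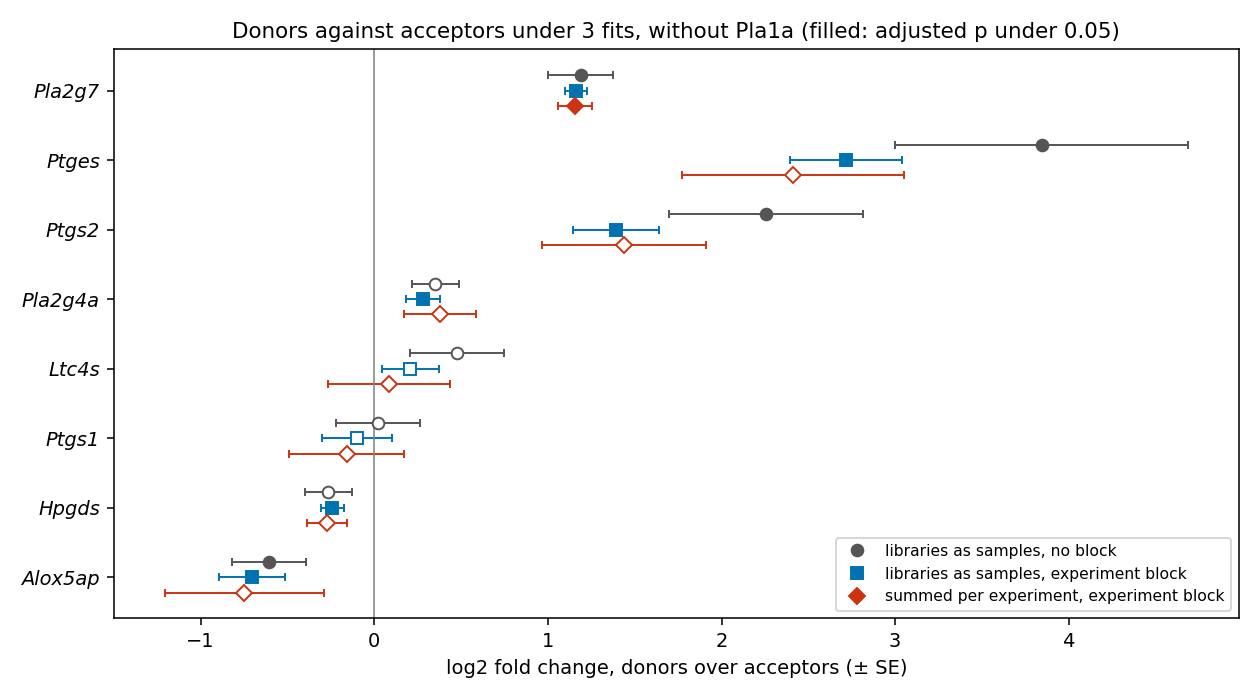
Log2 fold change (± SE) of donors over acceptors under 3 edgeR fits, for the 8 genes other than Pla1a; filled symbols passed an adjusted p of 0.05. Pla2g7 passed in all 3 fits, Ptgs2, Ptges and Alox5ap passed in the 2 fits that treat libraries as samples, and Pla2g4a and Hpgds passed only with the experiment block over libraries. Over libraries, 25.6% of all genes were called without the block and 44.3% with it, and in the summed pairs 1.2%.

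At single times, none of the 8 genes other than Pla1a was called in the fit without a block, with background shares of 0.251%, 0.888%, 0.805%, 0.418%, 0.167% and 0.0304% of genes at 0, 15, 30, 60, 150 and 300 min. By unadjusted p under 0.05, Pla2g7 passed at all 6 times, Ptges at 3, Ptgs2 at 2 and Pla2g4a at 1, and the other 4 genes at none. The share of all genes that passed this unadjusted threshold at single times is not given, so these counts are a description. At 15 min, for example, Pla2g7 had a log2 fold change of 1.22 ± 0.44 (SE; adjusted p = 0.216 by edgeR). With the experiment as a block, Pla2g7 was called at each of the 6 times, with log2 fold changes from 0.90 at 300 min to 1.28 at 30 min and adjusted p-values from 1.83e-07 to 0.0015. Ptges was called at 4 times, from 15 to 150 min, with log2 fold changes of 2.53 to 3.16 (adjusted p from 0.00433 to 0.0246), and the other 6 genes at no time. These blocked fits called 4.28%, 9.57%, 10.8%, 6.7%, 5.19% and 1.38% of all genes from 0 to 300 min.

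Over the co-culture time, no change of any of the 9 genes was detected. In edgeR's F tests over the 6 times, no gene had an unadjusted p under 0.05 among donors, among acceptors or in the difference between them, and the smallest adjusted p was 1. The smallest unadjusted p-values were 0.251 (Pla2g4a, donors), 0.199 (Pla1a, acceptors) and 0.579 (Pla1a, the difference). Pla1a had at most 3 counts in 16 of 22 acceptor libraries, so both of its values are a description near the counting limit. DESeq2 and the fit with the experiment as a block gave 0 calls and no unadjusted p under 0.05 among the 9 genes either. DESeq2 gave no p-value for Ptgs2, so its result covers the other genes only. These tests called 0.0607% of all genes in donors, 0.00759% in acceptors and 0 genes for the difference, where 113 genes had an unadjusted p under 0.05, DESeq2 called 4 and the block 6 (0.0456%). The block called 0.577% of genes over time in donors and 0.137% in acceptors. Group means at 0 min lack experiment 4, so they cannot be set beside the means of later times. Donors of experiment 4 lay outside the range of the other experiments for Ptgs2, Ptges, Pla1a, Pla2g4a, Alox5ap and Ltc4s. Within an experiment, the highest donor value of Pla2g7 over time was 1.06 to 1.56 times the lowest, and that of Ptgs2 1.65 to 2.26 times. In experiment 4, Pla2g4a of donors was 43.2, 51.3, 54.1, 71.6 and 84.8 CPM at 15, 30, 60, 150 and 300 min. In experiment 1 these values were 21.5, 21.6, 18.2, 28.1 and 31.4 CPM, and in experiment 2 they were 26.3, 30.4, 36.5 and 36.1 CPM at 15, 30, 150 and 300 min. Experiment 3 had 33.0, 36.5, 30.9, 30.3 and 34.5 CPM. The 2 latest donor values were thus above those at 15 and 30 min in experiments 1, 2 and 4, and not in experiment 3.

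None of the 9 genes was called between donors and cells with aSyn alone (edgeR; smallest adjusted p 1.00, 0 with an unadjusted p under 0.05), in a comparison that called 0.00759% of genes, that is 1 gene. DESeq2 also called none, but gave no p-value for Ptgs2. With the experiment as a block 1 of the 9 had an unadjusted p under 0.05 (Pla2g7), against 539 of the 13169 genes tested. In the summed pairs 2 had (Pla2g7 and Ptgs2), against 1083 of the 12685 genes tested. None of the 9 was called in either fit. The largest difference on the log2 scale was that of Ptges, at -0.71 ± 1.23 (SE), and the interval that this error leaves is wide. For Pla2g7 the difference was 0.28 ± 0.34. In the summed pairs it was 0.23 ± 0.07 (edgeR adjusted p = 0.353). All donor libraries of experiment 3 (211.2 to 255.8 CPM) and experiment 4 (192 to 216 CPM) were above the Pla2g7 level with aSyn alone (161 and 174 CPM), whereas those of experiments 1 and 2 lay on both sides of it. The 9 values had a median of -0.05 and all genes one of -0.02.

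Acceptors, which had received no aSyn before they were mixed with loaded donors, had more Ptgs2 than untreated cells. Whether aSyn or donor cells were present among the sorted acceptors was not tested. Their part cannot be told apart from co-culture, sorting and dye. All 22 acceptor libraries were above the untreated value of their experiment, by a ratio of means of 4.70, 2.20, 4.16 and 22.5 in experiments 1 to 4. At 0 min, acceptors already had 12.9, 7.57 and 8.39 CPM in experiments 1 to 3, against 3.33, 4.93 and 3.17 CPM in untreated cells. Such a complete separation in all 4 experiments held for 1.2% of all genes, and for no other of the 9 genes.
Its log2 fold change was 2.70 ± 1.21 (SE) and was not called without a block (edgeR adjusted p = 0.343). With the experiment as a block it was 2.24 ± 0.56 (adjusted p = 0.00728), and without experiment 4 it was 1.74 ± 0.37 (adjusted p = 0.0178, no block). In the 4 summed pairs it was 2.47 ± 0.50 (edgeR adjusted p = 0.0795).
None of the 9 genes was called in this comparison without a block, where 0.813% of all genes were. By unadjusted p under 0.05, 1 of the 9 passed, against 1592 of the 13169 genes tested. With the block 3 were called, against 10.9% of all genes: Ptgs2, Pla2g7 (0.37, adjusted p = 0.0294) and Hpgds (-0.41, adjusted p = 0.0158). In the summed pairs none was called, against 0.58% of all genes. There 4 had an unadjusted p under 0.05, against 2149 of the 13111 genes tested. Donors and acceptors are compared with each other and with these controls in the same experiments, and the untreated cells are 1 value per experiment.

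Other genes of the pathway were taken from 9 lists of 110 genes in all, of which 92 were listed and 74 tested. Between donors and acceptors, 15 of the 74 were called higher and 5 lower over libraries, against 12.7% and 12.9% of all genes. In the summed pairs 2 were higher and none lower. The median log2 fold change of the 74 was 0.05.
Of 4 prostanoid receptors tested, 2 were called higher. Ptger2, a prostaglandin E2 receptor, had 30.0 ± 21.4 CPM in donors and 7.69 ± 3.79 CPM in acceptors (SD, 22 libraries each), with donors above acceptors without overlap in 3 experiments, and its log2 fold change was 1.99 ± 0.29 (SE; adjusted p = 1.54e-06 by edgeR; summed pairs 1.71, adjusted p = 0.0668). The other, the prostacyclin receptor Ptgir, is 1 of the 2 genes called in the summed pairs, at 1.63 (adjusted p = 0.0371), and is named after its values were seen. It had 3.38 ± 2.08 CPM in donors and 1.05 ± 0.86 CPM in acceptors.
Of 4 leukotriene and related receptors tested, 3 were called higher, and none of these 3 is a leukotriene receptor. Fpr2 and Fpr1 are formyl peptide receptors and Cmklr1 is the chemerin receptor. Fpr2 had 110 ± 110 CPM in donors and 16.5 ± 10.8 CPM in acceptors, 2.64 higher on the log2 scale (edgeR adjusted p = 1.18e-05; summed pairs 2.20, adjusted p = 0.0750). Fpr1 had 70.6 ± 66.5 and 11.4 ± 8.62 CPM (2.53, adjusted p = 6.60e-05; summed pairs 2.04, adjusted p = 0.0823). Cmklr1, the other gene called in the summed pairs and likewise named after its values were seen, had 96.9 ± 17.6 and 36.1 ± 13.9 CPM (1.42; summed pairs 1.49, adjusted p = 0.0436). For all 3, donors were above acceptors without overlap in all 4 experiments.
Of 20 phospholipases A2 and related hydrolases tested, 4 were called higher and 1 lower. Pla2g5, a secreted phospholipase A2, had the largest fold change (3.50, edgeR adjusted p = 2.77e-04; summed pairs 3.09, adjusted p = 0.0759) but reached only 0.481 ± 0.492 CPM in donors, close to the counting limit, and overlapped in every experiment. Pla2g15, the lysosomal phospholipase A2, was lower in donors without overlap in all 4 experiments, with 104 ± 31.3 against 172 ± 23.1 CPM (-0.73, adjusted p = 1.38e-05; summed pairs -0.80, adjusted p = 0.105). Such a separation below acceptors held for 0.577% of all genes.
Of 11 lipoxygenase and leukotriene genes, 1 was called higher and 2 lower. Alox5, the 5-lipoxygenase that works with the protein of Alox5ap, had 0.613 ± 0.530 CPM in donors and 1.37 ± 0.717 CPM in acceptors (-1.20, edgeR adjusted p = 0.0274; summed pairs -1.60, adjusted p = 0.149). Mgst3, a microsomal glutathione transferase, had 7.28 ± 3.91 and 12.7 ± 3.26 CPM (-0.78, adjusted p = 0.0115; summed pairs -1.02, adjusted p = 0.167).
Of 5 genes of prostaglandin breakdown and transport, 1 was called, Hpgd, the dehydrogenase that inactivates prostaglandins. It had 98.2 ± 53.0 CPM in donors and 169 ± 38.9 CPM in acceptors (-0.76, edgeR adjusted p = 0.0126; summed pairs -1.02, adjusted p = 0.200). None of the 5 other prostanoid synthases tested was called without a block (with the block, 1 was higher). Of 14 genes of arachidonate release by other lipases and reacylation, 2 were called higher, of 9 genes of platelet-activating factor and lysophospholipid signalling, 2 higher and 1 lower, and of 2 genes of the annexin A1 system, 1 higher.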

How the data were processed

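Per the labels' protocols, the 54 libraries were made with a QuantSeq forward kit, which reads near the 3′ end of transcripts, and sequenced as single reads. The unit of the table that the authors deposited is the raw count of reads for each gene symbol. STAR, Partek, DESeq2 and the build mm10 are named, without role or version, in the submitters' processing notes. The counting program, its annotation and the use of strand are not given in the sources used here. A deposited normalized table was not used. Gene positions are from GENCODE (GRCm38) and promoters from RefSeq (GRCm38.p6), matched by symbol. Where an overlapping or near-identical gene exists, counts may be split or shared.

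The counts were analysed with edgeR 4.0.16 in R 4.3.3 (limma 3.58.1): TMM normalization, filterByExpr with a minimum count of 10 (13169 of 16632 genes left), a group-means design over all 14 groups and the quasi-likelihood F test, with Benjamini-Hochberg adjustment over all genes tested and calls at an adjusted p under 0.05. Donors were compared with acceptors as the mean of 6 groups against the mean of 6. Levels are CPM on TMM-scaled totals, computed here. Totals were 7807389 to 15537493 counts, and the labels state no molecular identifiers, so the limit of 3 counts covers counting error only. The code was tested on simulated counts.

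Same-numbered untreated libraries (numbers 2 and 4) differed by 12.1 and 10.3 chi-square per degree of freedom over genes with at least 20 counts, against 24.2 to 288 for other pairs, and were summed. Replicate numbers recur across groups in the labels and were read as experiments. By label, cells were of passage 2 in experiments 3 and 4, passage 1 in experiment 2 and passage 3 in experiment 1. The sequencing facility's numbers of experiment 4 (110050 to 110063) are apart from those of the rest (108934 to 108979), so the values without experiment 4 are those within the other batch of numbers. Experiment 4 alone has 1 library per group and could not be tested. The pairing was checked by the correlation of deviations from group means: for donors and acceptors it was 0.446 on average and at least 0.163 for same-numbered libraries, and -0.145 on average for others. The replicate number was then also fitted as a block. No label says that libraries of 1 experiment are separate cultures, so p-values over libraries may measure technical spread. Alternatives were DESeq2 1.42.0, median-of-ratios scaling, no filter, only the groups compared, untreated libraries kept apart, plain totals or totals without Rn45s for CPM, and leaving out each replicate. Counts summed per experiment, single times and the block without experiment 4 were added after the data were seen.

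The 9 genes and all lists were chosen with earlier results of these data known. Besides the 9, the text names the pathway genes called between donors and acceptors with the 4 largest rises and 4 largest falls, and for each of the 9 the 2 genes with the highest Pearson r over 52 values of log2 CPM (prior count 2) centred on the experiment.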

Additional observations from a re-analysis of the deposited data

Results flagged for a closer look

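In groups of 4 values, 25 of 90 combinations of a gene and a group held 1 value separated from the others by a gap that exceeds Dixon's 95% limit. Chance alone flags about 1 in 20 such groups, and 22 of the 25 values came from experiment 4, so these are not independent findings. No explanation was tested.

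For Ptgs2, experiment 4 was high in cells with aSyn alone (339 CPM), in donors at 15 min (519 CPM), 30 min (337 CPM), 150 min (731 CPM) and 300 min (384 CPM), and in acceptors at 30 min (76.9 CPM), 60 min (74.1 CPM) and 150 min (108 CPM). Among untreated cells, experiment 2 was high at 4.93 CPM. For Ptges, experiment 4 was high in cells with aSyn alone (546 CPM), in donors at 15 min (460 CPM), 30 min (461 CPM), 150 min (510 CPM) and 300 min (525 CPM), and in acceptors at 15 min (31.0 CPM), 60 min (16.2 CPM) and 150 min (28.2 CPM).

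For Pla1a, experiment 4 was high in cells with aSyn alone (9.60 CPM) and in donors at 15 min (9.04 CPM), 30 min (11.3 CPM) and 150 min (9.49 CPM). Pla2g4a was high in donors of experiment 4 at 300 min (84.8 CPM). Ltc4s was low in acceptors of experiment 4 at 150 min (7.82 CPM) and high in untreated cells of experiment 1 (15.0 CPM). Ptgs1 was high in donors of experiment 1 at 15 min (7.27 CPM). Pla2g7, Hpgds and Alox5ap had 0 such values.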

How the results depend on the processing

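Depth limits Pla1a and Pla2g5 most, the donor-acceptor test over libraries treats repeated libraries of 4 experiments as samples, and untreated and aSyn-only cells give 1 value per experiment. The cause of the changes below was not tested, except that fewer samples enter where experiments are left out or summed.

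With the replicate number as a block, the genes called were 5839 instead of 3372 (donors against acceptors), 2524 instead of 329 (aSyn alone against untreated), 1438 instead of 107 (acceptors against untreated), 2 instead of 1 (donors against aSyn alone), 76 instead of 8 (time in donors), 18 instead of 1 (time in acceptors) and 6 instead of 0 (difference over time). The block without experiment 4 gave 1620 (aSyn alone), 975 (acceptors against untreated), 4 (donors against aSyn alone), 207, 2 and 13 (the 3 time tests). DESeq2 gave 603 (aSyn alone), 191 (acceptors against untreated), 26, 34 and 4 (the time tests). DESeq2 gave no p-value for Ptgs2. Fitting only the groups compared gave 37 (aSyn alone), 0 (donors against aSyn alone) and 0 (time in acceptors). Pla1a did not pass the filter on low counts in that fit, or in the summed counts, of acceptors against untreated cells. With 6 untreated libraries kept apart, 618 and 485 genes were called against untreated cells.

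Leaving out 1 replicate gave 73 to 301 genes (aSyn alone), 2445 to 2739 (donors against acceptors), 0 to 2 (donors against aSyn alone), 0 to 160 (acceptors against untreated), 1 to 26 and 0 to 3 (time in donors and acceptors) and 0 (difference over time). Among the 9 genes, counting Pla1a, whose values are a description, 4 to 5 were called between donors and acceptors. Without experiment 4, 4 of the 8 genes other than Pla1a were called.

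Summed per experiment with the block, 161 genes and 2 of the 9 (Pla1a included) were called between donors and acceptors, without experiment 4 692 and 2, and without the block 2 and 0. Leaving out Pla1a, whose values are a description, 1 of the other 8 genes was called with the block, 1 without experiment 4 and 0 without the block. For donors against aSyn alone the sums gave 26 genes, 1.84% of genes without experiment 4 and 0 genes without the block, and for acceptors against untreated cells 0 without experiment 4 and 0 without the block. At single times, 33, 117, 106, 55, 22 and 4 genes were called from 0 to 300 min, and 0 of the 9 at each.

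Some small log2 fold changes changed sign. For donors against acceptors, Ptgs1 (0.02) became -0.10 with the block, -0.16 and -0.014 in the sums with and without it, -0.029, -0.21 and -0.26 at 0, 15 and 150 min, and -0.38 to 0.32 on leaving out 1 replicate. Ltc4s became -0.025 at 300 min and Pla2g4a -0.10 at 0 min. For donors against aSyn alone, Ptgs2 (0.16) became -0.040 with the block without experiment 4 and ranged from -0.058 to 0.18 on leaving out 1 replicate. Ptges (-0.71) became 0.062 and, summed, 0.049 without experiment 4 (range -0.97 to 0.18). Hpgds (0.02) became -3.25e-04 in the sums (range -0.024 to 0.044), Ltc4s ranged from -0.17 to 0.15, and Pla2g4a became 0.023 in the sums without the block (range -0.13 to 0.0033). Pla1a (-0.25) became 0.087 with the block, 0.22 with the block without experiment 4, and 0.085 and 0.21 in the sums with and without experiment 4 (range -0.35 to 0.18). For acceptors against untreated cells, Ptgs1 (0.02) became -0.14 with the block, -0.0011 with DESeq2 and -0.0012 with median-of-ratios scaling (range -0.25 to 0.32). Pla1a (0.45) became -0.90 with the block without experiment 4 (range -0.89 to 1.99).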

Other observations

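For each of the 9 genes, the genes with the most similar pattern over the 52 values are given as a description. The values share libraries, experiments and the difference between loaded and unloaded cells, so no p is attached. Pla2g7 was most like Adgre5, an adhesion receptor (r = 0.942), and Clec4n, a lectin receptor (r = 0.931). Pla1a was most like Ncf4, a subunit of the phagocyte oxidase (r = 0.930), and the integrin Itgal (r = 0.910). Ptgs2 was most like Clec4e, a lectin receptor also called Mincle (r = 0.907), and Nos2, the inducible nitric oxide synthase (r = 0.899). Ptges was most like Procr, the protein C receptor (r = 0.961), and the peroxiredoxin Prdx5 (r = 0.942).

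Alox5ap was most like S100a6 (r = 0.964) and Fxyd5 (r = 0.957), and Hpgds most like Celf2 (r = 0.877) and Rasa1 (r = 0.853). For Ltc4s these were Gpr162 (r = 0.833) and Glul, glutamine synthetase (r = 0.814), and for Pla2g4a the glycolytic gene Pgk1 (r = 0.791) and the histone gene H2bc4 (r = 0.747). Ptgs1 had no close match, with r = 0.597 for Hacd4 and r = 0.583 for Eef2k.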
